A study of Mus musculus with 2 samples.

Results

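The cells described here, selected on measured Ly6a and Muc3, are the 125 of 336 cells from collagen cultures that had a count of Ly6a and less than 150 CPM of Muc3, where CPM is counts scaled to 1000000 per cell. They made up 37.2% of the collagen cells (exact 95% binomial interval 32.02% to 42.61%), out of 2090 cells in the whole table. All cells were epithelium grown from crypts of the proximal small intestine of C57BL/6 wild-type mice. The collagen culture was type I collagen under medium with EGF (50 ng/mL), Noggin (100 ng/mL), R-spondin1 (400 ng/mL), Wnt3a (100 ng/mL), nicotinamide (10 mM) and bovine serum albumin (1%), and it gave cystic spheres. The Matrigel culture had EGF, Noggin and R-spondin1 at the same doses without the last 3 additions, and it gave budding organoids. On day 4 collagen cells were released with collagenase (0.5 mg/mL) and Matrigel cells with a non-enzymatic recovery solution. Each culture was tagged with its own hashtag through EpCAM, and the pool was captured on the BD Rhapsody platform, amplified by TAS-Seq and read as 1 cDNA library.

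Ly6a encodes the surface antigen Sca-1, which is scarce in the resting small intestine and appears in epithelium that is repairing an injury and in fetal intestinal epithelium. Cells in that state are known to carry little of the Lgr5 stem cell programme and to express genes such as Clu, Anxa1 and Msln, and the transcriptional regulators YAP and TAZ have been tied to it. Muc3 encodes a membrane mucin of the absorptive cell surface, and its level climbs as enterocytes mature.

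With 1 suspension per culture there was no replicate and no test was run, so every difference below is a description of these cells. Levels are counts summed over the cells of a group and scaled to a total of 1000000, ratios are on the log2 scale with 1 CPM added to each level, and brackets hold the lower and upper bounds of exact 95% Poisson intervals. The intervals cover counting error only. The Ly6a-positive Muc3-low cells were compared with the other 211 collagen cells, and separately with 2 kinds among these: 129 cells with Ly6a at 0 and Muc3 under 150 CPM, and 82 cells with Muc3 at or above 150 CPM. Depth summed to 17174030 counts over the Ly6a-positive Muc3-low cells (31525 to 708341 per cell, median 136826) and to 25366284 counts over the other collagen cells (30139 to 283336 per cell, median 120394). The median mitochondrial share was 3.20% in the Ly6a-positive Muc3-low cells and 3.56% in the other collagen cells.

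Ly6a and Muc3 chose the cells, so their levels are a description. Ly6a ran from 31.0 to 3562 CPM over the 125 cells, with a median of 336 CPM and quartiles of 130 and 848 CPM. The deposited table holds no Ly6a value under 6 counts, and the 3 lowest cells inside the limit had exactly 6. In the Ly6a-zero cells of collagen 6 counts would be worth 23.6 to 199 CPM, depending on depth, and 43 of the 125 cells lay under that upper value. A Ly6a of 0 therefore means fewer than 6 counts and not the absence of the transcript. Muc3 was at 0 in 73 of the 125 cells, the 3 highest values inside the limit were 148, 143 and 138 CPM, and the 3 lowest among the Ly6a-positive cells outside it were 155, 165 and 167 CPM. Another 26 collagen cells had Ly6a but exceeded the Muc3 limit.

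The label of regenerative epithelium came with 4 other marker genes, which the rule did not use. They were given with earlier results of these data known, so their levels describe the cells and are no independent evidence. Msln, the mesothelin gene, stood at 327 CPM [318, 335] in the Ly6a-positive Muc3-low cells, 67.1 CPM [63.1, 71.2] in the Ly6a-zero Muc3-low cells and 121 CPM [114, 128] in the Muc3-high cells. Clu, the gene of the secreted chaperone clusterin, stood at 625 CPM [613, 637], against 200 CPM [193, 207] in the Ly6a-zero Muc3-low cells and 172 CPM [164, 180] in the Muc3-high cells. S100a6, which encodes a calcium-binding protein, stood at 8384 CPM [8341, 8428], against 3464 CPM [3435, 3493] and 4605 CPM [4562, 4648] in the Ly6a-zero Muc3-low and the Muc3-high cells. All 3 were higher than in either neighbouring group by far more than the counting intervals. For Clu 8 of the 125 cells held at least 50% of the counts, against 16 of 129 and 9 of 82 in the neighbouring groups. Its log2 ratio over the other collagen cells was 1.72, and 1.53 without the cell with the most counts in each group. Wfdc2, which encodes a secreted protein of the WAP family, stood at 165 CPM [159, 171], against 86.7 CPM [82.2, 91.4] in the Ly6a-zero Muc3-low cells and 66.2 CPM [61.2, 71.6] in the Muc3-high cells. A count of Wfdc2 was present in 46.4% of the Ly6a-positive Muc3-low cells and 47.3% of the Ly6a-zero Muc3-low cells, so the share of cells with the gene was alike and its level where present was not.

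Over single cells the medians told the same order for Msln, Clu and S100a6. The median Msln level was 234 CPM (quartiles 41.9 and 502) in the Ly6a-positive Muc3-low cells and 0 CPM (quartiles 0 and 100) in the Ly6a-zero Muc3-low cells. For Clu the medians were 287 CPM (quartiles 130 and 590) and 105 CPM (quartiles 0 and 284) in the same groups, and for S100a6 they were 7178 CPM (quartiles 4558 and 11724) and 2876 CPM (quartiles 910 and 4742). The ranges overlapped for each of these genes, and the Ly6a-zero Muc3-low cells reached 1376 CPM of Msln, 2121 CPM of Clu and 26907 CPM of S100a6. Epcam, the epithelial adhesion gene, had a count in 125 of 125 cells and stood at 1279 CPM [1262, 1296], against 1580 CPM [1564, 1595] in the other collagen cells. Of 10 genes of the intestinal epithelium list 0 were 2-fold apart. Over all genes only 0.997% were 2-fold higher and 2.37% lower, so that count is near the share of any genes. Because Msln is also a gene of the mesothelium, 6 mesothelial genes were summed per cell, and the sum had a median of 0 CPM and a highest value of 105 CPM over the Ly6a-positive Muc3-low cells, against 0 and 146 CPM in the Muc3-high cells. Wt1 stood at 0.543 CPM, Gpm6a at 0.126 CPM and the fibroblast gene Col1a1 at 0.0582 CPM. The pan-leukocyte gene Ptprc stood at 0.500 CPM and the endothelial gene Pecam1 at 1.33 CPM. All lay under the 5 CPM that a gene had to reach to be compared. Of the immune list 1 gene, Cd68, was compared, at 11.2 CPM against 5.32 CPM in the other collagen cells (log2 ratio 0.95). Its level was 4.43 CPM in the Muc3-high cells (1.165). Of the mesothelial and fibroblast lists 1 gene each was compared, with log2 ratios of -0.75 and -4.93 over the other collagen cells.

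**Figure D1:**
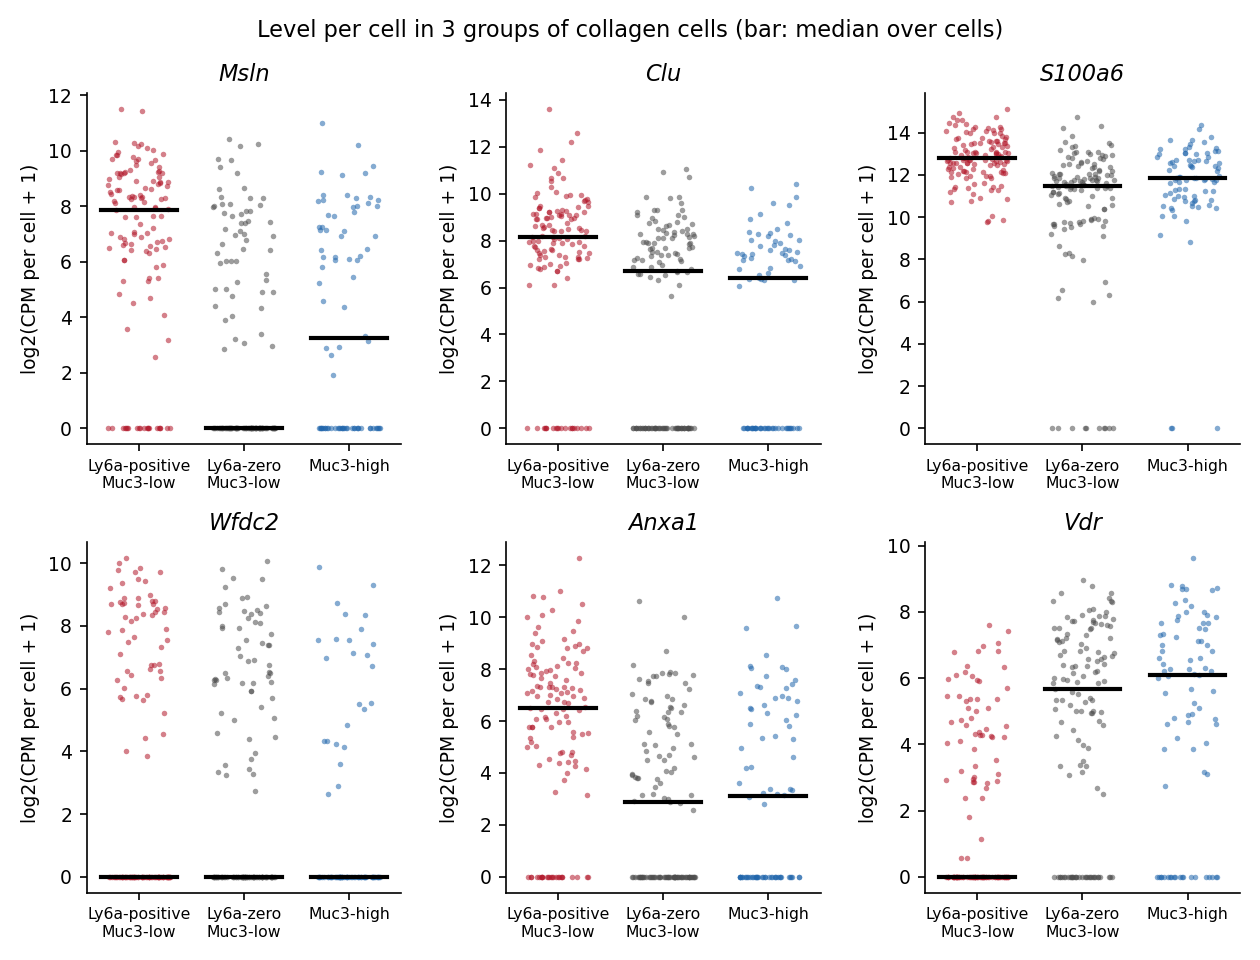
CPM per cell on the scale log2(CPM + 1) for Msln, Clu, S100a6, Wfdc2, Anxa1 and Vdr in the 125 Ly6a-positive Muc3-low, 129 Ly6a-zero Muc3-low and 82 Muc3-high collagen cells. Each point is a cell and each bar the median, which for Msln lies at 234 CPM in the Ly6a-positive Muc3-low cells and at 0 CPM in the Ly6a-zero Muc3-low cells, while the clouds overlap for every gene.

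Across the table, 10226 genes reached 5 CPM in the Ly6a-positive Muc3-low or the other collagen cells. By 2-fold or more, 102 of them were higher in the Ly6a-positive Muc3-low cells (0.997%) and 242 lower (2.37%), and the median log2 ratio was -0.02. Against the Ly6a-zero Muc3-low cells 138 of 10377 genes were higher (1.33%) and 337 lower (3.25%). Against the Muc3-high cells 568 of 10098 were higher (5.62%) and 277 lower (2.74%). Ly6a and Muc3 were left out of all these counts.

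Of the 20 genes listed for fetal and regenerative epithelium besides Ly6a, 18 reached 5 CPM, 9 were at least 2-fold higher than in the other collagen cells and 0 were 2-fold lower, with a median log2 ratio of 1.01 against -0.02 over all genes. Against the Ly6a-zero Muc3-low cells 11 of 18 were 2-fold higher (median 1.27), and against the Muc3-high cells 8 of 18 (median 0.79). The list holds the 4 marker genes used above and was drawn up with results of these cells known, so its median describes it and is no independent evidence. Anxa1, which encodes annexin A1, a membrane-binding protein that dampens inflammation, stood at 212 CPM [205, 219] against 56.0 CPM [53.1, 59.0] in the other collagen cells (log2 ratio 1.90). Part of that came from 1 cell at 4971 CPM, and without the cell with the most counts in each group the log2 ratio was 1.69. Anxa3, of the same family, stood at 562 CPM [551, 574] against 248 CPM [242, 254] (1.18), and every one of the 125 cells had a count of it. Il33, the gene of an alarmin cytokine, stood at 17.3 CPM [15.4, 19.4] against 7.14 CPM [6.13, 8.25] (1.17), though with each cell weighted equally the log2 ratio was 0.45. Emp1, an epithelial membrane protein gene, stood at 219 CPM [212, 226] against 55.5 CPM [51.9, 59.3] in the Ly6a-zero Muc3-low cells and 208 CPM [198, 217] in the Muc3-high cells.

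Genes outside that list also led the ranking by ratio. Efemp1, which encodes an extracellular matrix glycoprotein, stood at 56.6 CPM [53.1, 60.3] against 23.3 CPM [21.4, 25.2] in the other collagen cells (1.25). Myof, the gene of the membrane-repair protein myoferlin, stood at 86.2 CPM [81.9, 90.7] against 38.8 CPM [36.4, 41.3] (1.13). Tinagl1, which encodes a matricellular protein, stood at 74.6 CPM [70.6, 78.8] against 33.3 CPM [31.1, 35.7] (1.14). S100a14 and S100a11, of the S100 calcium-binding family, had log2 ratios of 1.19 (112 against 48.2 CPM) and 1.09 (3015 against 1414 CPM), and Krt23, a keratin gene, had one of 1.17 (273 against 121 CPM). Sptssb, which encodes a small subunit of serine palmitoyltransferase, reached 1.36 at 64.2 CPM [60.5, 68.1] against 24.5 CPM [22.6, 26.5], with a count in 43 of the 125 cells. Sycn, the gene of syncollin, a secretory granule protein, headed the ranking at 2.12, but 1 cell held 35.1% of its counts in the Ly6a-positive Muc3-low cells, and its median per cell was 0 CPM. S100a11 belongs, with Ly6a, Clu and S100a6, to 49 genes whose low values are lacking from the deposited table, and 94.4% of its values were fractional, as where reads map to several genes.

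**Figure D2:**
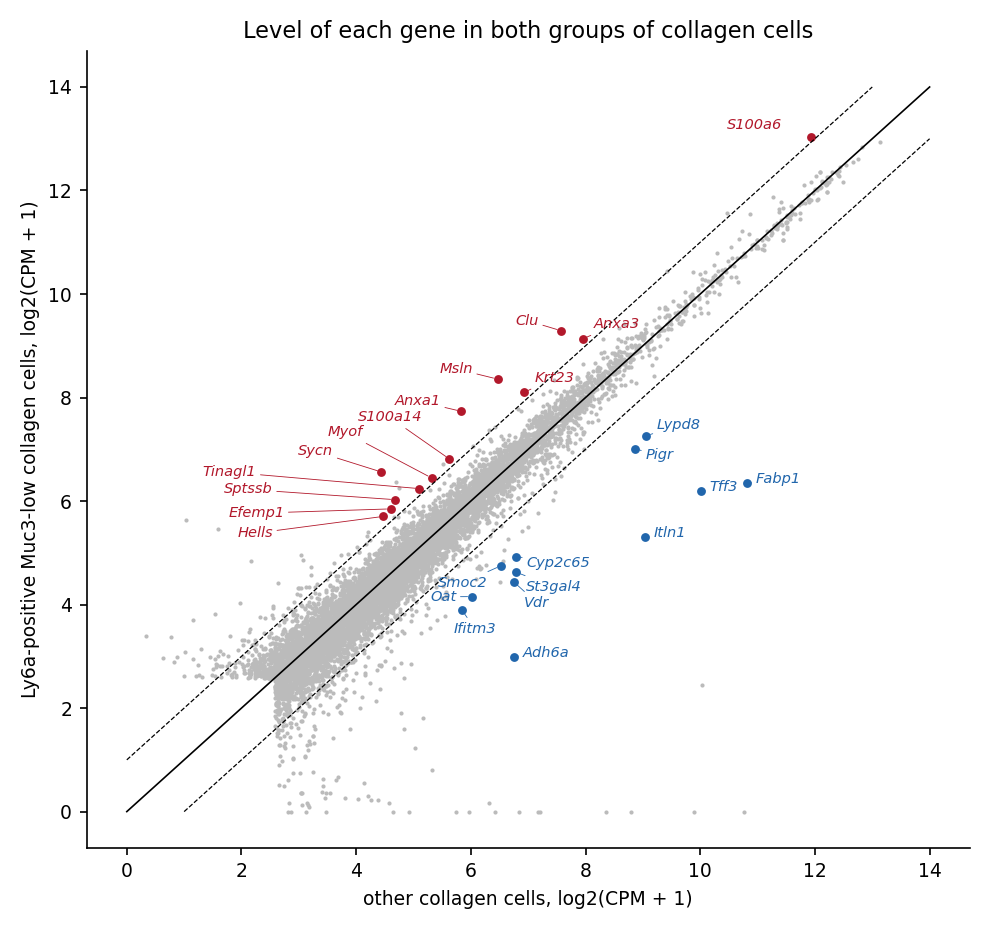
Level of each gene reaching 5 CPM in the 125 Ly6a-positive Muc3-low cells (vertical axis) and the other 211 collagen cells (horizontal axis), both as log2(CPM + 1). Red and blue points are the named genes with the largest ratios and S100a6, the solid line marks equal levels and the dashed lines a 2-fold difference, outside which 102 genes lie above and 242 below.

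The promoters of the genes that led the ranking are given where a motif of a factor linked to this state was found in them. The windows run from 250 bases before to 50 bases after the gene start and come from RefSeq for build GRCm38.p6. The letters TGANTCA, a core bound by AP-1, and GGAATG, a core bound by TEAD, the DNA partners of YAP and TAZ, were searched on both strands. Of the 12 genes with the largest ratio 8 had an entry, with 9 promoters in all. AP-1 letters stood in 2 of these 9 (22.222%) and in 7.808% of all 32851 promoters of the table, and TEAD letters stood in 3 of 9 (33.333%) and in 14.663% of all. Among the 12 genes with the largest ratio in the other direction, 11 promoters held AP-1 letters in 1 and TEAD letters in 3. With so few promoters these shares only describe the windows printed, and a match is not a bound site. The 3 windows below belong to Anxa1 (chr19:20390622-20390921, minus strand), Efemp1 (chr11:28852955-28853254, plus strand) and Tinagl1 (chr4:130175073-130175372, minus strand), each 5′ to 3′ with the matched letters of either strand in capitals. The Anxa1 window has TEAD letters at position -236 from the gene start, the Efemp1 window has AP-1 letters at -154, and the Tinagl1 window has AP-1 letters at -174 and TEAD letters at -149. Sycn, the remaining gene with TEAD letters, is not printed because its level rested on few cells.
Anxa1: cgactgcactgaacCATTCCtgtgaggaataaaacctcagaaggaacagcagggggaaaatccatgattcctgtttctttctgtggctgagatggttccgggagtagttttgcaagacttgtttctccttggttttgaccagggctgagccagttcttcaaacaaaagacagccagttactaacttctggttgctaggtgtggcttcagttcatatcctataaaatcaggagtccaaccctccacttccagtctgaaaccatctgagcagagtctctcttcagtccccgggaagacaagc
Efemp1: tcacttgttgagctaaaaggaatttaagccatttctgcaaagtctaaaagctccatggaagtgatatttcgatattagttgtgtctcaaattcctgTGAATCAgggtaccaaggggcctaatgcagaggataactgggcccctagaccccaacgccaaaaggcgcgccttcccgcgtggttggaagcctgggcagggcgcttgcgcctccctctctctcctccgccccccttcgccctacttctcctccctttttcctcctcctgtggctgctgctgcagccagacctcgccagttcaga
Tinagl1: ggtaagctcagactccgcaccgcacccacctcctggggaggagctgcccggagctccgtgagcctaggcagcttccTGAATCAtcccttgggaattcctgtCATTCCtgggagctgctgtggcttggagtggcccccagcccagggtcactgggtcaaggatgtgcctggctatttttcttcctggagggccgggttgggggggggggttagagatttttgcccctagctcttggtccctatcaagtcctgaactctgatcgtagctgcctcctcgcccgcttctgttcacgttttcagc

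Among the genes lower in the Ly6a-positive Muc3-low cells, those of the absorptive enterocyte stood out by count. Of 15 enterocyte genes reaching 5 CPM 0 were 2-fold higher and 12 were 2-fold lower than in the other collagen cells, with a median log2 ratio of -1.48. In the sums, enterocyte genes were lower too against the Ly6a-zero Muc3-low cells (8 of 16 lower, median -1.08). Those cells shared the Muc3 limit, but their Muc3 levels were not matched. Against the Muc3-high cells 10 of 14 were lower (median -1.67). Muc3 is itself a gene of absorptive cells. The rule may therefore partly build in the contrasts with the Muc3-high and the other collagen cells. Per cell the contrast was smaller: the summed level of 23 listed enterocyte genes had a median of 545 CPM in the Ly6a-positive Muc3-low cells (highest 6031 CPM), against 676 CPM in the Ly6a-zero Muc3-low cells (highest 35012 CPM) and 1200 CPM in the Muc3-high cells (highest 36928 CPM). Fabp1, the gene of a fatty acid-binding protein, stood at 80.2 CPM [76, 84.5] against 1807 CPM [1791, 1824] (-4.48), and a single cell held 70.3% of its counts in the Ly6a-positive Muc3-low cells, while 7 of the 211 other collagen cells held at least 50% of theirs. Without the cell with the most counts in each group the log2 ratio was -6.03. Apoa1, an apolipoprotein gene, stood at 12.8 CPM [11.2, 14.6] against 46.1 CPM [43.5, 48.8], and Reg3g, an antibacterial lectin gene, at 2.77 against 12.3 CPM. Reg1 was listed at 0 in the Ly6a-positive Muc3-low cells, and its 24.0 CPM in the other collagen cells came from 1 cell. Alpi, the gene of intestinal alkaline phosphatase, stood at 41.6 CPM [38.6, 44.8] against 118 CPM [114, 122]. That difference lay with the Muc3-high cells at 240 CPM [230, 250], since the Ly6a-zero Muc3-low cells stood at 45.2 CPM [42.0, 48.6]. The structural genes of the brush border did not share the pattern of the enterocyte list, with 0 of 15 apart by 2-fold and a median of -0.09. That count is near the share over all genes, of which 0.997% were 2-fold higher and 2.37% lower.

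Several of the genes with the largest ratios in the downward direction were low against both neighbouring groups, and they come from no single list. Of 13 genes listed for NF-kB, chemokines and defence 3 were 2-fold higher and 3 lower than in the Ly6a-zero Muc3-low cells (median log2 ratio 0.03), and of 12 against the Muc3-high cells 2 were higher and 1 lower (median -0.12). Vdr, the vitamin D receptor gene, stood at 20.7 CPM [18.6, 23] in the Ly6a-positive Muc3-low cells, 96.1 CPM [91.3, 101] in the Ly6a-zero Muc3-low cells and 123 CPM [116, 131] in the Muc3-high cells. Its median per cell was 0 CPM, against 49.9 and 67.2 CPM in those groups. Pigr, which encodes the receptor that carries IgA across the epithelium, stood at 128 CPM [122, 133], against 514 CPM [502, 525] and 382 CPM [370, 395] in the Ly6a-zero Muc3-low and the Muc3-high cells. Lypd8, of the Ly6 and uPAR family like Ly6a and known to keep flagellated bacteria off the colonic epithelium, stood at 153 CPM [147, 159], against 423 CPM [413, 434] and 719 CPM [702, 736]. Cyp2c65, a cytochrome P450 gene, stood at 29.4 CPM [26.9, 32.1], against 82.1 CPM [77.7, 86.7] and 155 CPM [147, 163]. Adh6a, an alcohol dehydrogenase gene, stood at 6.97 CPM [5.79, 8.36], against 58.2 CPM [54.5, 62.0] and 190 CPM [181, 199]. St3gal4, a sialyltransferase gene, stood at 23.7 CPM, against 47.8 CPM in the Ly6a-zero Muc3-low cells and 212 CPM in the Muc3-high cells. Oat, the gene of ornithine aminotransferase, stood at 16.8 CPM, against 71.5 CPM in the Ly6a-zero Muc3-low and 50.5 CPM in the Muc3-high cells, with 100% of its values fractional. Among 23 intestinal transcription factor genes 1 was 2-fold higher and 3 were 2-fold lower: Tead4, a DNA partner of YAP, at 17.5 against 6.83 CPM, and Vdr, Hnf4g (17.9 against 46.4 CPM) and Maf (5.27 against 11.8 CPM). Ppara, the lipid-sensing nuclear receptor gene, stood at 4.17 CPM, against 18.9 CPM in the Ly6a-zero Muc3-low and 22.5 CPM in the Muc3-high cells.

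Genes of secretory cells were also much lower in the sums, but that contrast sat in a handful of cells. All 7 goblet, 6 Paneth and 10 enteroendocrine genes that reached 5 CPM were at least 2-fold lower than in the other collagen cells. A count of Defa24, Chgb, Spink4, Agr2, Neurog3 or Lyz1, which mark secretory types or their precursors, was present in 1 of 125 Ly6a-positive Muc3-low cells (these genes were chosen after their levels were seen), against 13 of 129 Ly6a-zero Muc3-low cells and 1 of 82 Muc3-high cells. Of these 13 cells 4 had an own hashtag share under 95%. The summed level of 11 Paneth genes ran from 0 to 778 CPM per cell in the Ly6a-positive Muc3-low cells (median 5.62 CPM), against 0 to 294067 CPM in the Ly6a-zero Muc3-low cells (median 30.0 CPM) and 0 to 1812 CPM in the Muc3-high cells (median 5.89 CPM). Tff3, the goblet trefoil factor gene, stood at 72.0 CPM [68.0, 76.1] against 1031 CPM [1019, 1044] in the other collagen cells (-3.82). With those cells left out, Tff3 stood at 64.5 against 53.8 CPM (0.26), so the direction turned, and genes 2-fold lower than in the other collagen cells numbered 170 instead of 242. Itln1, an intelectin gene of Paneth and goblet cells, was lower at 38.6 CPM [35.7, 41.7] against 523 CPM [514, 532] (-3.72), with -2.32 when the cells were left out. Ifitm3, an interferon-induced membrane protein gene, had a log2 ratio of -1.79 without them (-1.94 with them).

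**Figure D3:**
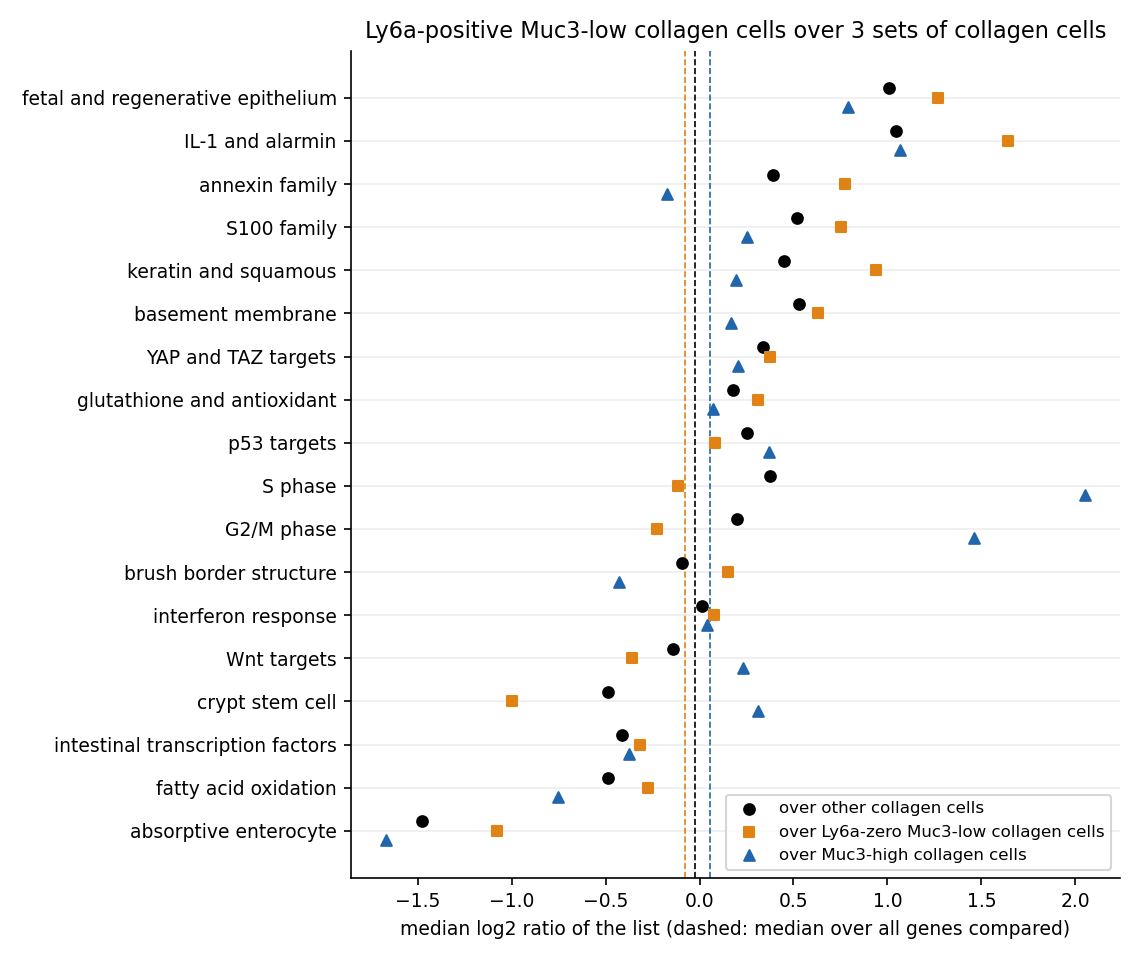
Median log2 ratio of 18 gene lists for the Ly6a-positive Muc3-low cells over the other collagen cells, the Ly6a-zero Muc3-low cells and the Muc3-high cells, over members reaching 5 CPM. Dashed lines are the medians of all genes; the fetal and regenerative list lies at 1.01, 1.27 and 0.79, and the enterocyte list at -1.48, -1.08 and -1.67.

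In the sums, stem cell genes were lower in the Ly6a-positive than in the Ly6a-zero cells of low Muc3. Per cell these groups overlapped. The summed level of 17 listed genes had a median of 404 CPM (quartiles 252 and 696) in the Ly6a-positive Muc3-low cells. It was 691 CPM (quartiles 353 and 1274) in the Ly6a-zero Muc3-low cells and 294.5 CPM in the Muc3-high cells. Over all genes 1.33% were 2-fold higher and 3.25% lower than in the Ly6a-zero Muc3-low cells. Of 14 crypt stem cell genes 0 were 2-fold higher and 7 were 2-fold lower than in the Ly6a-zero Muc3-low cells, with a median log2 ratio of -0.997, whereas against the Muc3-high cells 3 of 10 were higher, 0 were lower and the median was 0.31. Lgr5, the R-spondin receptor gene of crypt base stem cells, stood at 16.5 CPM [14.6, 18.5] in the Ly6a-positive Muc3-low cells, 59.0 CPM [55.3, 62.9] in the Ly6a-zero Muc3-low cells and 19.5 CPM [16.7, 22.4] in the Muc3-high cells. Smoc2, a secreted matrix protein gene of the same signature, stood at 25.9 CPM [23.5, 28.4], against 119 CPM [113, 124] and 44.0 CPM [39.9, 48.4]. Olfm4, a stem cell glycoprotein gene for which the table holds no value under 12 counts, was listed at 0 in all 125 cells, while 3 Ly6a-zero Muc3-low cells held it. Axin2, a Wnt feedback inhibitor gene, stood at 10.9 CPM [9.33, 12.5] against 23 CPM [20.7, 25.5] in the Ly6a-zero Muc3-low cells. Ccnd1, the cyclin D1 gene and a Wnt target in some tissues, lay the other way, at 321 CPM [312, 329] against 211 CPM [204, 218] in the Ly6a-zero Muc3-low cells and 110 CPM [103, 117] in the Muc3-high cells. Over 11 Wnt targets 0 were higher and 3 lower than in the Ly6a-zero Muc3-low cells (median -0.36).

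In the sums, cell cycle genes set the Ly6a-positive Muc3-low cells apart from the Muc3-high cells, and most lay within 2-fold of the Ly6a-zero Muc3-low cells. Of 26 S phase genes 23 were at least 2-fold higher than in the Muc3-high cells (median log2 ratio 2.05), as were 25 of 26 G2/M genes (median 1.46). Per cell the contrast was smaller. The summed level of 27 listed S phase genes had a median of 369 CPM in the Ly6a-positive Muc3-low cells. It was 379 CPM in the Ly6a-zero Muc3-low cells and 269 CPM in the Muc3-high cells. For 26 G2/M genes the medians were 355, 549 and 202 CPM in the same order. Against the Ly6a-zero Muc3-low cells 0 of 26 S phase genes and 0 of 26 G2/M genes were 2-fold higher, 0 and 2 were 2-fold lower, and the medians were -0.11 and -0.23. Hells, a chromatin remodelling helicase gene of S phase, stood at 51.1 CPM [47.7, 54.6] in the Ly6a-positive Muc3-low cells, 31.8 CPM [29.1, 34.8] in the Ly6a-zero Muc3-low cells and 3.27 CPM [2.22, 4.64] in the Muc3-high cells. Smc2, a condensin gene, stood at 51.0 CPM [47.7, 54.5], against 56.2 CPM [52.6, 60.0] and 5.17 CPM [3.82, 6.83] in the same order of groups. Tyms, the thymidylate synthase gene, stood at 80.5 CPM [76.3, 84.9], against 63.0 CPM [59.1, 67.0] and 15.8 CPM [13.4, 18.6]. The proliferation marker Mki67 stood at 57.7 CPM [54.2, 61.4], against 96.6 CPM [91.8, 102] in the Ly6a-zero Muc3-low cells and 27.7 CPM [24.5, 31.3] in the Muc3-high cells, and Mki67 or Top2a had a count in 73 of 125, 85 of 129 and 37 of 82 cells. For Mki67 the Ly6a-positive Muc3-low cells thus lay between the neighbouring groups. The share of cells with a count also follows depth, which was a median of 136826 counts in the Ly6a-positive Muc3-low, 123937 in the Ly6a-zero Muc3-low and 115567 in the Muc3-high cells.

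Il1rn and Plat were lower in the Ly6a-zero Muc3-low cells than in both other groups. Il1rn, the gene of the interleukin-1 receptor antagonist, stood at 73.2 CPM [69.3, 77.4] in the Ly6a-positive Muc3-low cells, 12.9 CPM [11.3, 14.9] in the Ly6a-zero Muc3-low cells and 80.6 CPM [75, 86.5] in the Muc3-high cells. Plat, which encodes tissue plasminogen activator, stood at 126 CPM [121, 132], against 25.1 CPM [22.7, 27.7] in the Ly6a-zero Muc3-low cells and 144 CPM [136, 151] in the Muc3-high cells. Emp1, given above, was also lowest in the Ly6a-zero Muc3-low cells. Of 14 keratin and squamous genes 7 were 2-fold higher than in the Ly6a-zero Muc3-low cells and 0 lower (median 0.94), against 2 higher and 1 lower than in the Muc3-high cells (median 0.19). Krt7, a simple-epithelium keratin gene, stood at 561 CPM [550, 572], against 228 CPM [221, 236] in the Ly6a-zero Muc3-low cells and 463 CPM [450, 477] in the Muc3-high cells. Krt20, a keratin of mature intestinal cells, was the gene of that list lower than in the Muc3-high cells, at 53.6 CPM [50.2, 57.1] against 350 CPM [338, 362], with 20.4 CPM [18.3, 22.8] in the Ly6a-zero Muc3-low cells. Sprr1a, of the cornified envelope, stood at 212 CPM [205, 219] against 116 CPM [112, 121] in the other collagen cells, but 1 cell held 54.0% of it, and without the top cell of each group the log2 ratio was 0.27 instead of 0.86. Ly6d, a relative of Ly6a, likewise owed 73.4% of its 42.7 CPM to 1 cell. Ly6e, another relative, was found in 116 of 125 cells at 279 CPM [271, 287], against 165 CPM [160, 170] in the other collagen cells. Cdkn1a, the p21 gene, stood at 259 CPM [252, 267], against 242 CPM [234, 250] in the Ly6a-zero Muc3-low and 534 CPM [519, 549] in the Muc3-high cells.

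Most listed targets of YAP and TAZ lay within 2-fold, as did most genes compared. Of 12 listed genes reaching 5 CPM 2 were 2-fold higher and 1 lower than in the other collagen cells. Over all genes the shares were 0.997% and 2.37%, and the list median log2 ratio was 0.34 against -0.02. Over the Ly6a-zero Muc3-low cells 3 of 12 were higher and 1 lower. Over the Muc3-high cells 4 of 12 were higher and 0 lower. The summed level of 20 listed targets had a median per cell of 230 CPM, against 135.5 and 133.7 CPM in those groups. Cryab, a small heat shock protein gene, was higher at 12.1 CPM [10.5, 13.8] in 29 of 125 cells, against 1.22 CPM [0.83, 1.74] in 10 of 211 other collagen cells, and Myof was the second. Ccn1, a matricellular gene and a direct target, was the lower one, at 7.54 CPM [6.32, 8.99] against 23.4 CPM [21.6, 25.4]. Amotl2 lay within 2-fold, at 14.8 CPM [13.0, 16.7] against 8.11 CPM [7.05, 9.31]. Among 8 basement membrane genes 1 was higher, Col4a2, a collagen IV chain gene, at 12.4 CPM [10.8, 14.2] against 4.82 CPM [3.99, 5.74]. Among 26 glutathione and antioxidant genes 1 was higher, Hmox1, of haem breakdown, at 39.0 CPM [36.1, 42.1] against 17.3 CPM [15.7, 19.0], and 1 lower, Gstm3. Glycolysis and hypoxia genes, tight junction genes and Notch genes had 0 members 2-fold apart in either direction, out of 23, 14 and 8, against the other collagen cells.

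A count is found more often in deeper cells, so shares were set side by side with all cells brought down to 43460 counts by thinning. This kept 116 of the Ly6a-positive Muc3-low, 112 of the Ly6a-zero Muc3-low and 74 of the Muc3-high cells. Msln was then present in 78.5% of the Ly6a-positive Muc3-low cells (exact 95% binomial interval 69.8% to 85.5%), against 36.6% (27.7% to 46.2%) of the Ly6a-zero Muc3-low cells and 51.4% (39.4% to 63.1%) of the Muc3-high cells. Free RNA can add such counts in a pooled capture. In the Matrigel cells of the same capture, at a median depth of 179044 counts before thinning, Msln was present in 1.81%. Anxa1 was present in 76.7% (68.0% to 84.1%), against 41.1% (31.9% to 50.8%) and 40.5% (29.3% to 52.6%) in the same collagen groups, with 10.7% in Matrigel cells. Efemp1 had 62.9% (53.5% to 71.7%), against 27.7% (19.6% to 36.9%) and 44.6% (33.0% to 56.6%), with 1.62% in Matrigel cells. For these 3 genes the interval of the Ly6a-positive Muc3-low cells lay above that of the Ly6a-zero Muc3-low cells. Wfdc2 had 44.0% (34.8% to 53.5%) against 43.8% (34.4% to 53.4%) of the Ly6a-zero Muc3-low cells, so no difference in the share was detectable at this depth. Vdr was present in 26.7% (18.9% to 35.7%) of the Ly6a-positive Muc3-low cells, against 67.0% (57.4% to 75.6%) and 71.6% (60.0% to 81.5%), with 95.1% in Matrigel cells. Lgr5 was present in 21.6% (14.5% to 30.1%), against 47.3% (37.8% to 57.0%) and 28.4% (18.5% to 40.0%), with 87.6% in Matrigel cells. Fabp1 was present in 25.9% (18.2% to 34.8%) and Tff3 in 42.2% (33.1% to 51.8%), with 37.1% and 50.2% in Matrigel cells. The shares of these 4 genes in the Ly6a-positive Muc3-low cells lie under those in Matrigel cells. A count of any of them is therefore not by itself read as expression in the Ly6a-positive Muc3-low cells. The same limit covers other genes described above, among them Hells (25.9% against 81.5% in Matrigel cells) and Tyms (58.6% against 78.7%). It also covers Mki67 (39.7% against 51.6%) and Pigr (66.4% against 100%). How far free RNA set these shares was not tested. Clu is left out here, because its low values are lacking from the table and thinning cannot make its detection equal. Unthinned, the shares of Msln were 83.2%, 44.2% and 56.1% in the 3 collagen groups.

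**Figure D4:**
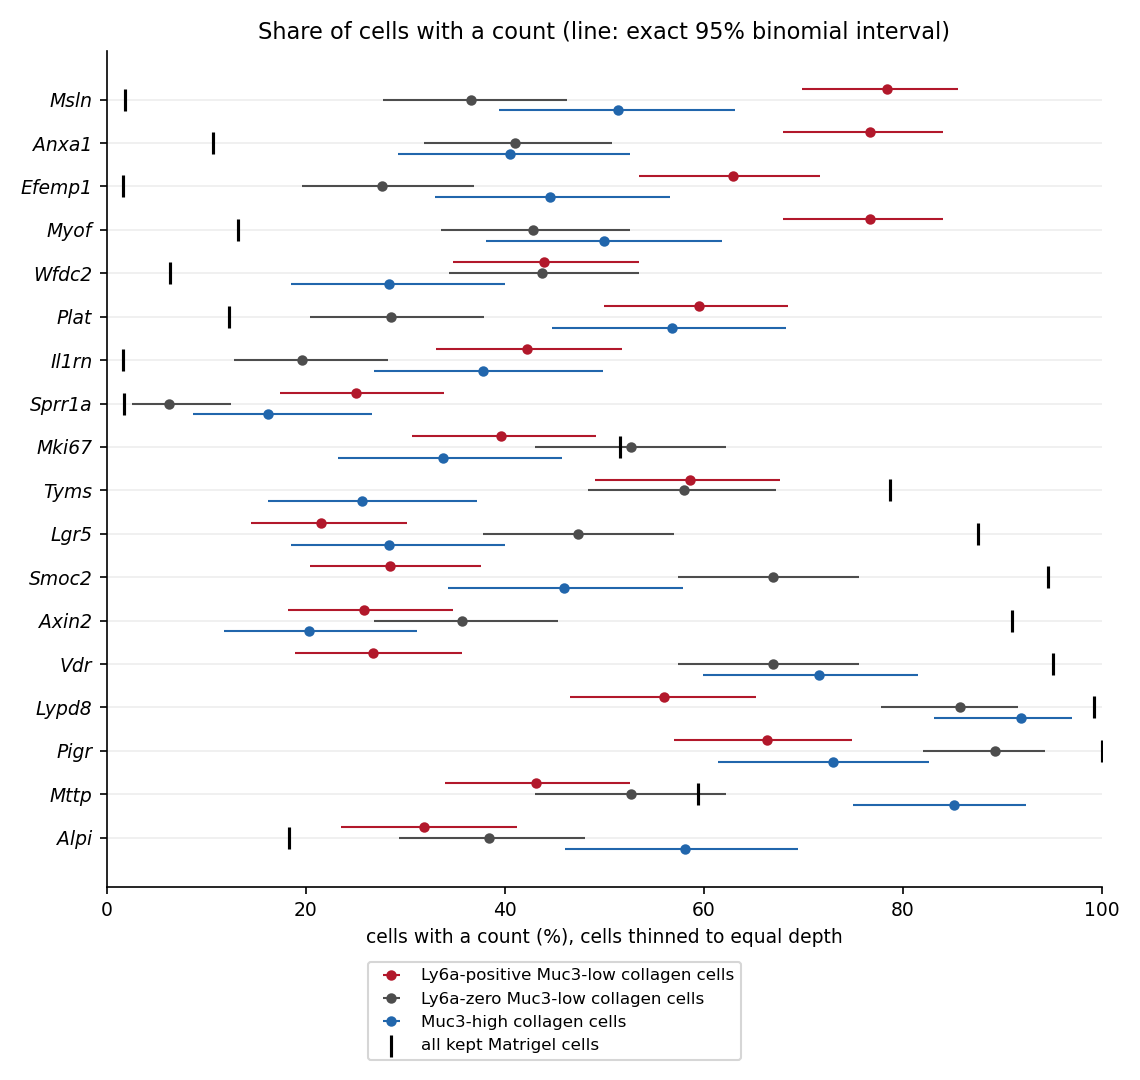
Share of cells with a count of 18 genes after thinning to 43460 counts, with exact 95% binomial intervals, in the Ly6a-positive Muc3-low (116), Ly6a-zero Muc3-low (112) and Muc3-high (74) collagen cells, and as a tick the share in kept Matrigel cells. The intervals of Msln, Anxa1 and Myof in the Ly6a-positive Muc3-low cells lie above those of both neighbours and the intervals of Vdr and Lypd8 below them, while those of Efemp1, Lgr5, Smoc2 and Pigr overlap with the Muc3-high cells.

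The 125 cells differed among themselves. All 4 of Msln, Wfdc2, Clu and S100a6 had a count in 42 cells, 3 of them in 61 cells, 2 in 19, 1 in 3 and none in 0 cells, against 31 of 129 Ly6a-zero Muc3-low cells and 10 of 82 Muc3-high cells with all 4. Msln and Clu both had a count in 90 of the 125 cells, Msln without Clu in 14, Clu without Msln in 15 and neither in 6. Low values of Clu and S100a6 are lacking from the table, so a 0 of these genes is not absence of the transcript. These counts of cells were also not brought to equal depth. Across the 125 cells the Spearman correlation of CPM per cell was 0.67 for Msln with S100a6, 0.48 for Msln with Clu and 0.47 for Clu with S100a6. Wfdc2 stood apart, at 0.05 with Msln, 0.04 with Clu and 0.11 with S100a6. In cells with a count of Wfdc2 (58) and without one (67), Msln stood at 332 and 321 CPM, Clu at 625 and 625 CPM, and S100a6 at 8353 and 8416 CPM. These correlations are across cells of 1 suspension that share a library and are not replicates, and all CPM values of a cell share its total.

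The level of Ly6a in a cell was most like that of keratin, S100 and annexin genes. By the rule used here, which takes the 8 genes with the largest Spearman correlation with Ly6a over the 125 cells, these were Krt7 (0.63), Krt18 (0.60), Myl12a (0.56), Krt8 (0.55), Nlrp4e (0.54), S100a11 (0.53), Anxa3 (0.51) and Anxa5 (0.49). Values of Myl12a, Krt8, Nlrp4e and S100a11 were fractional in 94.4% to 99.6% of cases, as where reads map to several genes. Since Ly6a had to reach 6 counts, shallow cells entered only at a high CPM of Ly6a, which touches these correlations. The median over 2506 genes was -0.12, and Ly6a correlated at -0.35 with the total count of a cell. S100a6 ranked 18 at 0.44, Msln 28 at 0.40, Clu 67 at 0.27 and Wfdc2 700 at -0.03.

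In the sums, counts of the cycling marker Mki67 and the squamous marker Sprr1a went with other genes in opposite directions. By the limit on free RNA given above, a count of Mki67 does not by itself mark a cycling cell. Across the 125 cells the Spearman correlations of Mki67 were weak, at -0.16 with Msln, -0.28 with Clu and -0.26 with S100a6. They were -0.21 with Anxa1, -0.29 with Sprr1a and 0.35 with the total count of a cell. A count of Mki67 was present in 64 cells (median depth 150492 counts) and absent from 61 (median 119505), so the cells with it were also deeper. In the cells with Mki67 Msln stood at 262 CPM against 428 CPM in those without, Clu at 500 against 819 CPM and S100a6 at 7309 against 10054 CPM. Anxa1 stood at 103 against 381 CPM, Il1rn at 41.5 against 123 CPM and Hells at 79.3 against 7.36 CPM. Sprr1a was present in 40 of the 125 cells, against 14 of 129 Ly6a-zero Muc3-low and 20 of 82 Muc3-high cells. In those 40 cells (median depth 111644) Anxa1 stood at 492 CPM against 103 CPM in the other 85 (median depth 139829), Clu at 1104 against 438 CPM, Il1rn at 158 against 40.4 CPM, Krt20 at 119 against 27.9 CPM and Mki67 at 30.7 against 68.2 CPM. Both splits compare sums, in which a single cell can weigh much, as described above for Anxa1 and Sprr1a. They were not repeated without such cells. With all cells holding Sprr1a left out, 85 Ly6a-positive Muc3-low cells remained, and the log2 ratios over the other collagen cells were 2.15 for Msln, 1.51 for Anxa1, 1.31 for Clu and 1.16 for S100a6.

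**Figure D5:**
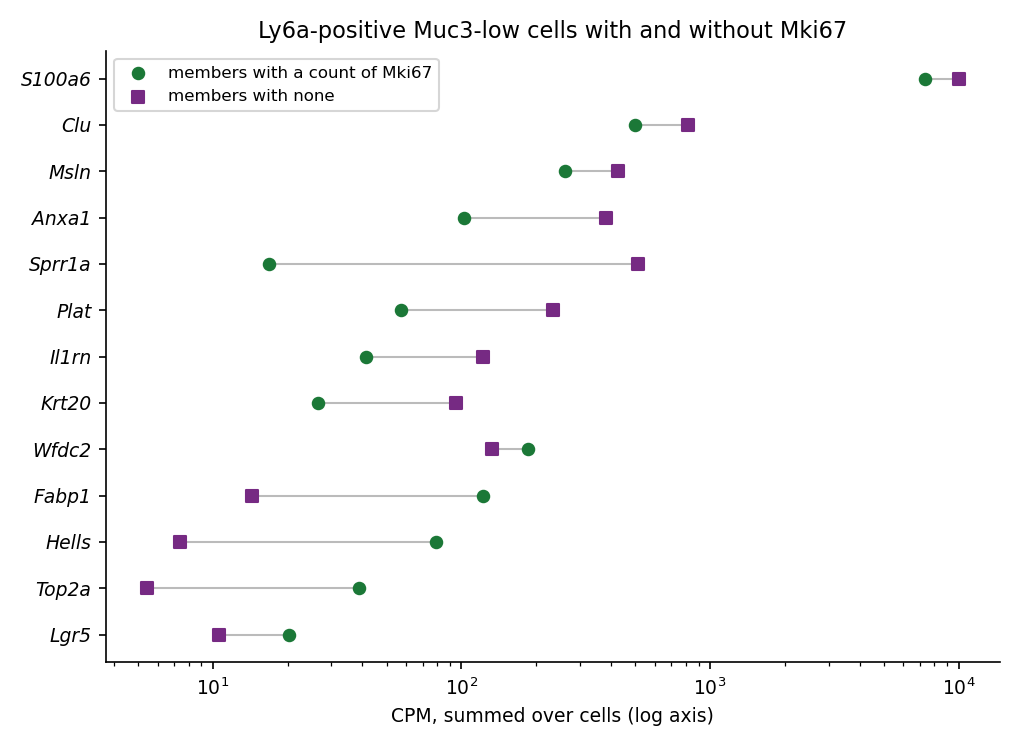
Level in CPM, on a log axis, of genes in the 64 Ly6a-positive Muc3-low cells with a count of Mki67 and the 61 without one. Msln, Clu, S100a6, Anxa1 and Sprr1a are lower in the cells with Mki67, and Hells is higher, at 79.3 against 7.36 CPM.

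The same rule applied to Matrigel cells found 53 of 1599 kept cells (3.315%, interval 2.492% to 4.313%). Their Ly6a had a median of 48.96 CPM (range 17.3 to 1395 CPM). The collagen cells had 884 of 10583 genes higher by 2-fold or more (8.35%) and 1190 lower (11.2%) than these Matrigel cells, with matrix, medium and release of the cells differing together. Msln stood at 327 CPM in the collagen cells against 8.21 CPM [6.64, 10.1] in the Matrigel cells, where 2 of 53 cells had it, and Clu at 625 against 27.7 CPM [24.7, 30.9]. All 4 of Msln, Wfdc2, Clu and S100a6 had a count in 42 of the 125 collagen cells and in 0 of the 53 Matrigel cells. The lack of low values of Clu and S100a6 limits these counts too. Median depth was 136826 counts in the collagen cells and 207620 in the Matrigel cells. Of 18 fetal and regenerative genes 15 were 2-fold higher (median log2 ratio 2.10), and of 16 crypt stem cell genes 1 was higher and 12 were lower (median -2.35). Lgr5 stood at 16.5 CPM against 125 CPM [119, 132] in the Matrigel cells, and S phase genes were lower too, with 24 of 27 2-fold lower (median -1.50). G2/M genes were not, with 3 of 26 higher, 3 lower and a median of -0.06. Culture and kind of cell cannot be told apart in these differences.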

How the data were processed

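Per the labels, cells of both cultures were pooled, captured and sequenced as 1 cDNA and 1 hashtag library. The submitters' processing notes list cutadapt 4.1, STARsolo 2.7.10a, R 4.2.1 and the GRCm39 mouse build, with no role or order. The authors deposited estimated counts (expected counts, not scaled) of 37172 genes in 2090 cells as 1 table for both cultures, and 75.58% of the values above 0 were whole (within 1e-06). The sources used here do not say whether copies of 1 molecule were merged, so intervals may be too narrow. For the first 49 genes low values are lacking, with smallest values of 3.328 to 183. The authors also deposited counts of hashtag reads per barcode, used for the share of the own hashtag; all 2090 barcodes of the expression table are in it.

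Cell names set the culture, per the labels. The 139 cells named as doublets were left out, no doublet caller was run, and cells needed at least 500 genes and at most 30% mitochondrial counts, which removed 16 Matrigel and 0 collagen cells. The members and the 45 gene lists (18 symbols had no entry) were chosen with earlier results of these data known. Counts were summed per group and scaled to CPM, and genes reaching 5 CPM in either group were compared. The log2 ratio with 1 CPM added understates differences of low genes. Named genes reached 50 CPM, 100 counts and 20% of cells in the higher group: the 12 with the largest ratio over the other collagen cells and the 6 over each neighbour in each direction, up to 4 per list described (reaching 10 CPM), 8 most like Ly6a, and a fixed set of markers; mitochondrial, ribosomal, predicted and pseudogene symbols were left out. For shares, cells were thinned (drawing without replacement) to 43460 counts, percentile 10 of the depth of collagen cells. Sums were rounded for exact Poisson and Clopper-Pearson intervals (scipy 1.17.1, numpy 2.4.6, pandas 2.3.3, matplotlib 3.10.9, Python 3.11.15). On counts simulated for the Ly6a-positive Muc3-low over the other collagen cells, 37172 genes in all, 100% of 114 genes changed 2-fold and 98.8% of 86 changed 4-fold came within 0.2 of the true log2 ratio. These shares do not tell how far a reported ratio rested on single cells. Without the cell with the most counts in each group, Sprr1a moved from 0.86 to 0.27 and Fabp1 from -4.48 to -6.03. Promoter windows came from RefSeq (GRCm38.p6); no gene coordinates of GRCm39 are given. Some genes named by the rule are not reported here.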

Additional observations from a re-analysis of the deposited data

How the results depend on the processing

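No test was run, and with 1 suspension per culture no replicate could be left out. No paired analysis was possible because there was 1 library of each kind and no replicate. Counts of genes at least 2-fold apart moved by more than 1.5 times under these settings. With 5 CPM added in place of 1, the counts higher and lower were 39 and 132 against the other collagen cells, 70 and 151 against the Ly6a-zero Muc3-low cells, 258 and 146 against the Muc3-high cells, and 536 and 695 against the Matrigel cells. With genes reaching 20 CPM they were 39 and 99, 67 and 99, 220 and 151, and 504 and 590 for the same comparisons. With Ly6a of at least 200 CPM (82 cells) 170 were higher and 417 lower than in the other collagen cells, 230 and 564 than in the Ly6a-zero Muc3-low cells, 451 lower than in the Muc3-high cells and 1363 higher than in the Matrigel cells. Thinning gave 372 lower than in the other collagen cells and 600 lower than in the Ly6a-zero Muc3-low cells, and equal weight of cells gave 598 for the second. A Muc3 limit of 100 CPM gave 357 higher than in the Muc3-high cells. The larger addition shrinks ratios of low genes by construction, the 20 CPM limit and the limits on Ly6a and Muc3 change which genes or cells enter, and for thinning and equal weight the cause was not tested. Leaving out cells with a secretory gene, a choice made after seeing the data, gave 214 lower than in the Ly6a-zero Muc3-low cells, and turned the log2 ratios over the other collagen cells of Tff3 to 0.26 and of Muc2 to 0.0195. Mt2 turned from -1.38 to 0.24 with an own hashtag share of at least 95%; the cause was not tested. The fetal and regenerative list kept a positive median over the other collagen cells under the 12 alternatives run (0.85 to 1.28) and the enterocyte list a negative one (-1.67 to -1.16). The ratio of Wfdc2, 1.05, lay under 1 in 7 of them. Depth limits genes near 5 CPM, where the interval of a level can span its ratio.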
